A study of Mus musculus with 12 samples.

Results

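The genes described here encode the proteasome and its assembly factors and activators. Members were taken by name: every entry of the count table whose symbol starts with Psma, Psmb, Psmc, Psmd, Psme, Psmf or Psmg followed by a number, with pseudogenes marked -ps left out. This gave 50 genes of the 32288 entries in the table. The name rule itself uses no measured value. One of the 50, *Psmc3ip*, carries the name because its product binds a proteasome ATPase, but it acts in meiotic recombination and is not a subunit.

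The proteasome degrades proteins that cells have tagged with ubiquitin. Its 20S core is a barrel of stacked rings, in which alpha subunits form the gates and beta subunits hold the cutting sites. The 19S particle caps the barrel, binds the ubiquitin chain, removes it and unfolds the protein with a ring of ATPases. Interferon replaces the standard catalytic subunits by *Psmb8*, *Psmb9* and *Psmb10*, which form the immunoproteasome and shift cleavage toward peptides that MHC class I molecules can display. In bone, proteasome activity sets the levels of osteoblast regulators such as RUNX2 and beta-catenin, and proteasome inhibitors are known to affect bone formation.

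Bulk RNA-seq read out gene expression in mGFP+ cells that had been sorted from the metaphysis, the growing end of the shaft, of mouse femurs and tibias. All mice carried *Osx-CreERT2* and *mTmG*, so that tamoxifen, given to every group, turned *Osx*-expressing cells from tdTomato to membrane GFP. Juvenile *Osx*+ osteoblasts (3 weeks of age, 4 libraries) and adult *Osx*+ osteoblasts (8 weeks, 4 libraries) carried no further allele, and each of these libraries pooled bones of 2 male mice. The *c-Myc*-induced osteoblasts (2 libraries) carried in addition *LSL-tTA* and *Col1a1::TetO–c-Myc*. With this pair of alleles Cre switches on a *c-Myc* transgene, unless doxycycline or tetracycline is given. The *c-Myc* + *R172H* osteoblasts (2 libraries) carried these alleles and *Trp53-LSL-R172H*, which lets Cre switch on a mutant p53. Both induced groups were collected 7 days after tamoxifen, whereas juvenile and adult cells were, per the study, collected sooner after the last dose and after more daily doses. Their titles give 3 weeks, whereas the extraction protocol calls these mice 5 weeks old, and the shaft was trimmed at about 5 mm from the growth plate against 2 mm for juvenile and adult mice. The protocol names both sexes for the induced mice. Per the study, mice with the inducible transgene, or pregnant females, drank doxycycline or tetracycline until some time before analysis. Age, trimming, sex, the tamoxifen schedule, these drugs and the transgene can therefore not be told apart in the comparisons of induced with juvenile osteoblasts. *Osx*-driven Cre also labels some cells other than osteoblasts, and in bulk RNA a smaller share of one cell type and less RNA per cell cannot be told apart. The labels do not say that libraries came from separate litters or days, so p-values measure only the spread between these libraries.

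Each library held between 9066154 and 15684412 counts. Levels are given as CPM, counts scaled to a common library size with TMM factors over the 12 libraries, and 3 counts, taken as the limit of detection, corresponded to 0.137 to 0.417 CPM. These limits cover counting error only. *Myc* itself lay at 39.8 to 52.2 CPM in juvenile, 44.7 to 51.2 in adult, 624 to 657 in *c-Myc* and 639 to 747 in *c-Myc* + *R172H* libraries, so every library matched its label as *c-Myc*-induced or not. The summed CPM of 11 osteoblast markers, led by *Col1a1*, which codes for the main bone collagen chain, was 571000 to 840000 in juvenile libraries, 343000 to 619000 in adult, 99900 to 132000 in *c-Myc* and 56400 to 58400 in *c-Myc* + *R172H* libraries. The sum of 11 cartilage markers was 18500 to 36100 in juvenile and 43800 to 138000 in adult libraries, but 1870 to 2110 in *c-Myc* and 872 to 1040 in *c-Myc* + *R172H* libraries. Of 6 endothelial markers, 5 were at 0 in every juvenile library, with a sum of at most 0.32 CPM in a control and 1.59 CPM in an induced library, and the sum of 7 erythroid markers stayed at or below 0.68 CPM in every library.

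Proteasome genes were expressed at similar total levels in juvenile and adult osteoblasts and at higher levels in both induced groups. The 50 genes together had 1286 to 1402 CPM in juvenile libraries and 1290 to 1364 CPM in adult libraries. In the *c-Myc* libraries they had 2325 and 2180 CPM, and in the *c-Myc* + *R172H* libraries 2255 and 2152 CPM. As a share of all counts, with no scaling, they took 0.0889 to 0.12% in juvenile, 0.108 to 0.141% in adult, 0.279 to 0.325% in *c-Myc* and 0.338 to 0.359% in *c-Myc* + *R172H* libraries. No library of an induced group overlapped a library of either control group on these measures. The unscaled share also depends on genes with very many counts. *Col1a1* had 386000 to 565000 CPM in juvenile and 224000 to 406000 in adult libraries. It had 65500 to 87900 CPM in *c-Myc* and 35300 to 37100 in *c-Myc* + *R172H* libraries. Its part in the unscaled shares was not tested.

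Levels of different genes were compared per kb of exon. *Psmb6*, a constitutive catalytic subunit, was the highest in all 4 groups, at 83.8 ± 13.6 CPM per kb in juvenile libraries (SD, n = 4). *Psmb4*, a structural beta subunit, came second in every group, at 62.5 ± 8.35 CPM per kb in juvenile libraries. These spreads do not overlap, with 74.6 to 103 CPM per kb for *Psmb6* and 53.0 to 70.1 for *Psmb4*. *Psma7* followed with 39.6 to 44.4 CPM per kb and *Psmb7* with 26.5 to 41.2, and these neighbours overlapped. The 7 alpha subunits, which stand in equal numbers in the ring, differed by 4.93 to 7.92 times per kb between the lowest and the highest within a juvenile library. This spread depends on the length used, which joined the exons of all coding transcripts. It was 2911 bases for *Psma2* and 2846 for *Psma3*, the lowest per kb, against 1148 to 1241 for the others. Of the windows of *Psma3*, 20.5% occur in other genes. In plain CPM, juvenile means ran from 12.4 for *Psma5* to 48.6 for *Psma7*. At the lower end, *Psmb8* had 1.16 ± 0.594 and *Psmb9* 0.483 ± 0.378 CPM per kb in juvenile libraries. *Psmb11*, the catalytic subunit of the thymus proteasome, was at 0 in all 8 control libraries and reached at most 2 counts in an induced library. It was not tested.

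**Figure D1:**
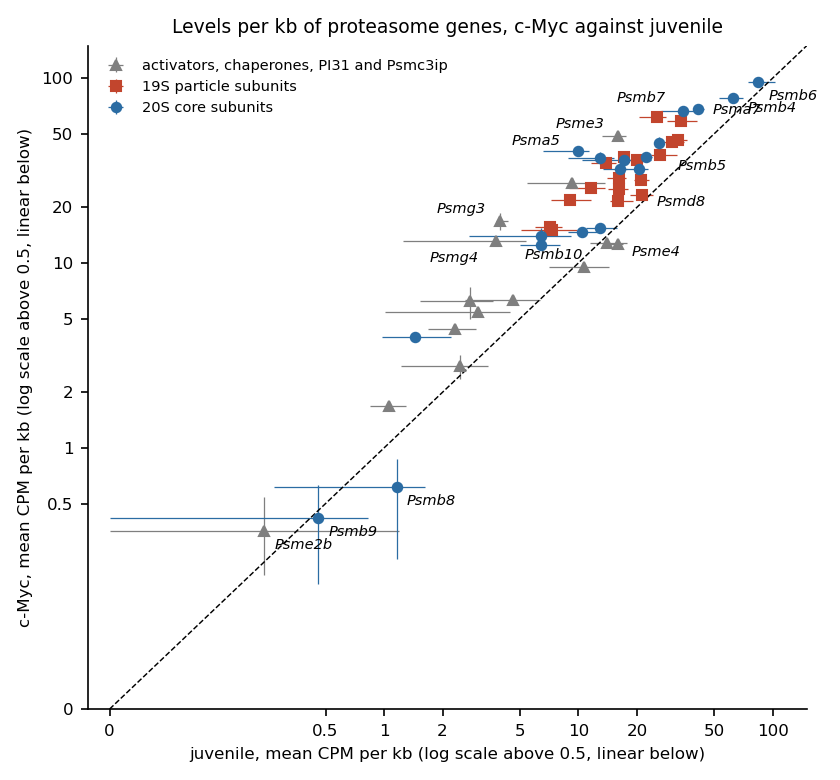
Mean CPM per kb of exon in juvenile (horizontal, n = 4) and *c-Myc* (vertical, n = 2) libraries for the 49 proteasome genes other than *Psmb11*, on axes that are logarithmic above 0.5 and linear below. Lines run from the lowest to the highest library and the dashed line marks equal levels; most subunits lie above it, *Psmb6* is the highest on both axes, and *Psmb8*, *Psmb9*, *Psme1*, *Psme2* and *Psme4* lie below it.

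Induction of *c-Myc* was compared with juvenile osteoblasts to ask which genes moved with the transgene. Of the 50 genes, 49 passed the filter on low counts, 35 were higher in *c-Myc* osteoblasts and 1, *Psme4*, was lower at an adjusted p below 0.05 (edgeR quasi-likelihood test, Benjamini-Hochberg over 12588 genes). The 35 are 71.4% of the members tested, and over all genes 28.4% were called higher and 25.0% lower. A log2 fold change of at least 1 was reached by 17 of them, against 18.4% of all genes. In 38 members both *c-Myc* libraries lay above all 4 juvenile libraries, and in 1 member both lay below; over all genes this held for 35.7% and 28.7%. The median log2 fold change of the members was 0.78, against 0.04 over all genes, and the members ranged from -0.94 to 2.07 with an SD of 0.60 against 1.58 over all genes. Most proteasome genes thus moved in one direction and by a moderate amount. *Myc* rose by 3.78 ± 0.11 on the log2 scale (SE).

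Scaling by library totals in place of TMM moved the median of all genes to 0.87 and that of the members to 1.62. With it 46 members were called higher and none lower, and the split of all genes was 6803 higher and 1115 lower in place of 3577 and 3149. Leaving out 1 juvenile library gave 35 to 39 members called higher, and 3535 to 3761 of all genes. Without either *c-Myc* library that group held 1 library, and fewer members and fewer of all genes were called. With any 1 library left out, the members' median was 0.729 to 0.846. The summed CPM of 6 proliferation markers was 80.5 to 112 in juvenile and 470 to 500 in *c-Myc* libraries, and its part in the changes of the proteasome genes was not tested.

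**Figure D2:**
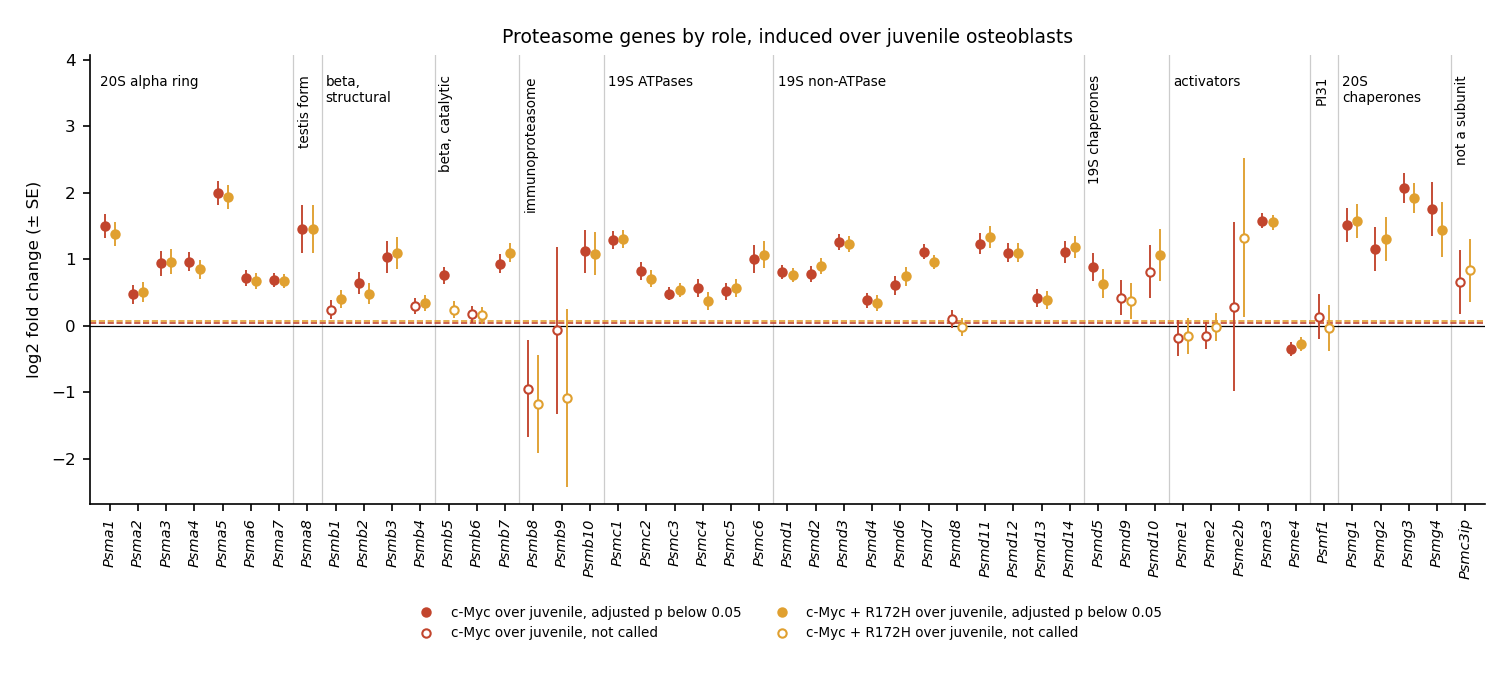
Log2 fold change over juvenile osteoblasts, with SE, of 49 proteasome genes in *c-Myc* (red, n = 2 against 4) and *c-Myc* + *R172H* libraries (yellow, n = 2 against 4), ordered by role. Filled points passed an adjusted p of 0.05 and open points did not; dashed lines are the medians of all genes, 0.04 and 0.08. The alpha ring and the 19S ATPases lie above 0 throughout, the 20S chaperones are the highest group, and *Psmb8*, *Psmb9*, *Psme1*, *Psme2* and *Psme4* lie at or below 0.

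All 7 genes of the alpha ring rose in *c-Myc* osteoblasts, by 0.47 to 1.99 on the log2 scale (median 0.94). *Psma5* changed the most of the ring. It lay at 14.1, 14.1, 12.9 and 8.19 CPM in juvenile libraries and at 15.2, 18.1, 16.2 and 22.5 in adult libraries. The *c-Myc* libraries had 53.0 and 47.2 CPM and the *c-Myc* + *R172H* libraries 48.9 and 45.5. The 4 induced libraries were thus far above all 8 control libraries, and *Psma5* rose by 1.99 ± 0.18 on the log2 scale (SE, adjusted p = 1.73e-06). Of the 86-base windows of its transcripts, 34.1% also occur in transcripts of *Gm12989* or *Gm8394*, so its count is uncertain. *Psma1*, another gate subunit, rose by 1.5 ± 0.18, whereas *Psma2* rose by only 0.47 ± 0.15. *Psma2* was no longer called when either *c-Myc* library was left out (adjusted p up to 0.138). *Psma8*, the form of *Psma7* known from testis, was low at 1.64 to 3.72 CPM in juvenile libraries and had 7.03 and 6.40 CPM in *c-Myc* libraries, a rise of 1.46 ± 0.36 (adjusted p = 0.00444). Without *c-Myc* replicate 1 its adjusted p was 0.0542.

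Of the 4 structural beta subunits, *Psmb2* and *Psmb3* rose in *c-Myc* osteoblasts, by 0.64 ± 0.16 and 1.03 ± 0.24. *Psmb2* was not called without *c-Myc* replicate 1 (adjusted p = 0.0585). *Psmb1* and *Psmb4* did not pass the test, at 0.24 (adjusted p = 0.175) and 0.30 (adjusted p = 0.0518), although both *c-Myc* libraries of *Psmb4*, at 98.0 and 87.0 CPM, lay above the juvenile range of 62.7 to 82.9 CPM. *Psmb1* was called without juvenile replicate 3, and *Psmb4* without juvenile replicate 3 or 4. In *c-Myc* + *R172H* osteoblasts all 4 were called higher, by 0.34 to 1.09, but *Psmb1*, *Psmb2* and *Psmb4* were not when either *c-Myc* + *R172H* library was left out (adjusted p up to 0.279), nor *Psmb1* without juvenile replicate 2 and *Psmb4* without juvenile replicate 1 or 2. None of these 3 was called in a fit of these 6 libraries alone, and *Psmb4* lost its call in 9 alternatives in all, among them RLE scaling (adjusted p = 0.0555) and DESeq2 (adjusted p = 0.0523).

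The 3 constitutive catalytic subunits did not move alike. *Psmb7*, which holds the trypsin-like site, had 30.8, 36.4, 45.0 and 47.8 CPM in juvenile libraries, 76.6 and 77.9 in *c-Myc* and 83.9 and 85.7 in *c-Myc* + *R172H* libraries. It rose by 0.93 ± 0.15 with *c-Myc* (adjusted p = 0.00016) and by 1.1 ± 0.15 with *c-Myc* + *R172H* (adjusted p = 3.59e-05). *Psmb6*, which holds the caspase-like site and is the most abundant member, did not pass the test in either comparison, at 0.18 ± 0.13 and 0.16 ± 0.13. Its juvenile libraries had 59.6, 59.5, 82.6 and 65.8 CPM, and this range took in all 4 induced libraries, at 70.5 to 77.6 CPM. Without juvenile replicate 3, the library at 82.6 CPM, *Psmb6* was called higher in both (0.28, adjusted p = 0.0248, and 0.27, adjusted p = 0.0315), as it was with library totals. *Psmb5*, which holds the chymotrypsin-like site that bortezomib blocks, lay at 22.7, 24.4, 23.1 and 23.3 CPM in juvenile libraries and rose to 43.5 and 37.2 CPM with *c-Myc* (0.76 ± 0.13, adjusted p = 0.000279). In the *c-Myc* + *R172H* libraries it had 27.0 and 28.2 CPM, above all juvenile libraries but not called (0.24 ± 0.13, adjusted p = 0.13). Of its 86-base windows 30.0% also occur in *Gm3375* or *Mir686*.

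**Figure D3:**
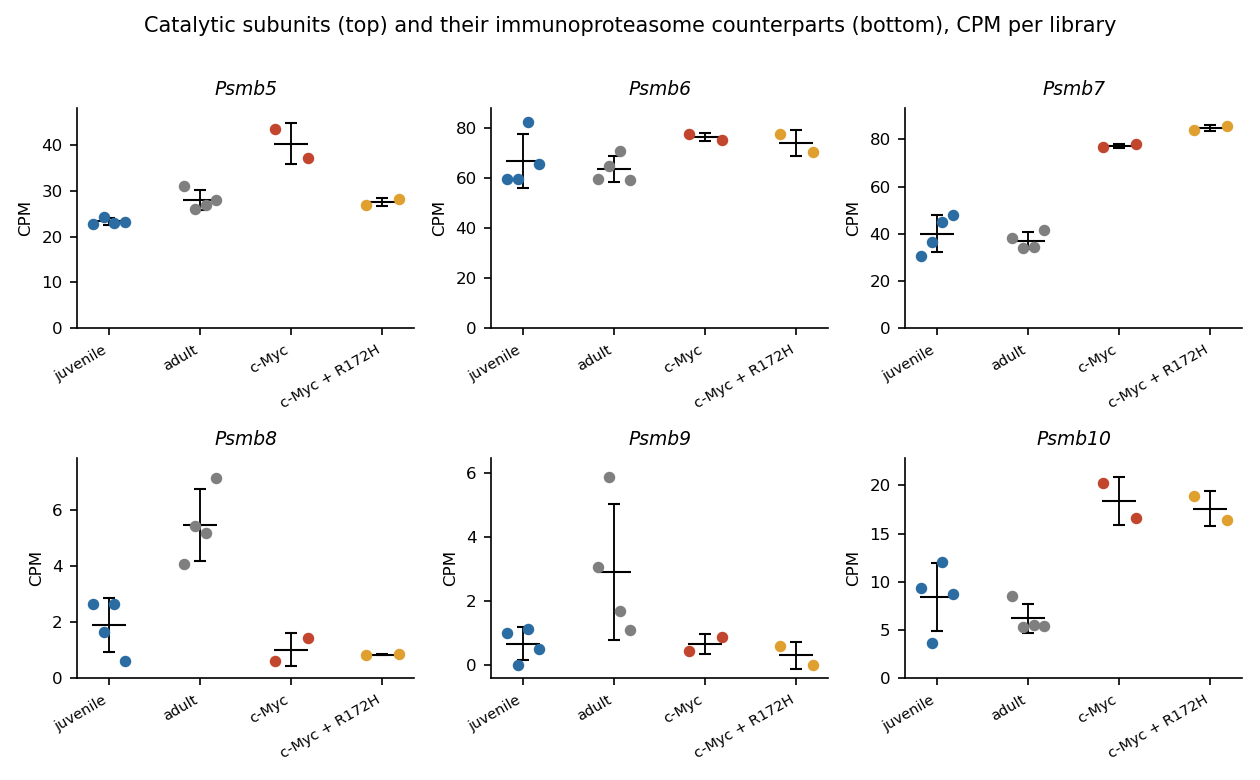
CPM per library of the constitutive catalytic subunits (top row) and of the immunoproteasome subunit that replaces each (bottom row) in juvenile (n = 4), adult (n = 4), *c-Myc* (n = 2) and *c-Myc* + *R172H* (n = 2) libraries. Points are libraries, the wide line is the mean and the bars are the SD; *Psmb5* is high in *c-Myc* libraries alone, *Psmb7* and *Psmb10* are high in both induced groups, and *Psmb8* is highest in adult libraries.

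The immunoproteasome subunits also moved apart. *Psmb10*, which takes the place of *Psmb7*, had 9.40, 3.61, 12 and 8.69 CPM in juvenile libraries, 20.2 and 16.6 in *c-Myc* and 18.9 and 16.4 in *c-Myc* + *R172H* libraries. All 4 induced libraries were above all control libraries, and *Psmb10* rose by 1.12 ± 0.32 and 1.09 ± 0.32 (adjusted p = 0.00997 and 0.0111). Each call was lost when replicate 1 of its induced group was left out (adjusted p = 0.098 and 0.0949). *Psmb8*, which takes the place of *Psmb5*, had 2.65, 1.65, 2.64 and 0.621 CPM in juvenile libraries against 0.593 and 1.42 with *c-Myc* and 0.823 and 0.843 with *c-Myc* + *R172H*. These values overlap, rest on 5 to 29 counts per library, and were not called (log2 fold change -0.94, adjusted p = 0.293, and -1.17, adjusted p = 0.191). *Psmb9*, which takes the place of *Psmb6*, was at 0 in juvenile replicate 2 and in *c-Myc* + *R172H* replicate 2 and at most at 1.11 CPM in the other juvenile and induced libraries. Its difference could not be resolved at this depth, with a log2 fold change of -0.07 ± 1.26 in *c-Myc* osteoblasts. A part of its exons overlaps *Tap1* on the opposite strand, and the strand setting of the counting is not given in the sources used here.

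Per kb of exon, the 3 immunoproteasome subunits made up 5.22 ± 1.92% of the sum over the 6 catalytic genes in juvenile libraries (SD, n = 4), 6.69 ± 1.01% in adult (n = 4), 6.79 ± 0.382% in *c-Myc* (n = 2) and 6.72 ± 0.594% in *c-Myc* + *R172H* libraries (n = 2). These shares overlap between all groups, and *Psmb10* contributed most to the juvenile and induced ones. For *Psmb8* and *Psmb9* alone, set against *Psmb5* and *Psmb6*, the share was 0.686 to 2.31% in juvenile and 3.59 to 6.49% in adult libraries. It was 0.457 and 1.09% in *c-Myc* and 0.737 and 0.431% in *c-Myc* + *R172H* libraries. Adult libraries were thus apart from the other 8 in this share. *Psmb10* made up 8.07 to 21.3% of its pair with *Psmb7* in juvenile and 10.4 to 16.5% in adult libraries, and the induced libraries, at 14.5 to 18.9%, fell within the juvenile range.

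The 19S particle rose nearly as a whole. All 6 ATPases of its base, which unfold substrates, were higher in *c-Myc* osteoblasts, by 0.49 to 1.29 on the log2 scale. *Psmc1* changed the most of them, with 24.6, 20.2, 18.5 and 24.8 CPM in juvenile libraries, 56.9 and 53.2 with *c-Myc* and 55.4 and 53.3 with *c-Myc* + *R172H*. That is a rise of 1.29 ± 0.14 on the log2 scale (adjusted p = 5.95e-06). The mean level of the 6 ATPases was 21.7 ± 1.08 CPM per kb in juvenile, 20.3 ± 0.858 in adult, 36.0 ± 1.48 in *c-Myc* and 34.5 ± 0.636 in *c-Myc* + *R172H* libraries, close to that of the alpha ring, at 17.1 ± 1.16, 18.1 ± 1.13, 34.5 ± 2.33 and 32.7 ± 1.56. Within 1 library the ATPases differed from one another less in the induced than in the juvenile libraries, with a coefficient of variation of 30.3 to 31.8% against 40.5 to 51.3%. Adult libraries lay in between, at 33.8 to 43.9%, and overlapped the juvenile ones.

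Of the 11 subunits of the 19S particle that are not ATPases, 10 rose, by 0.38 to 1.26. *Psmd3*, a subunit of the lid, rose by 1.26 ± 0.12, *Psmd11*, whose level is known to limit 19S assembly in stem cells, by 1.23 ± 0.16, and *Psmd14*, the enzyme that cuts the ubiquitin chain off the substrate, by 1.11 ± 0.16. The ubiquitin receptor *Psmd4* and the subunit *Psmd13* were at the low end, at 0.38 ± 0.12 and 0.42 ± 0.14, and neither was called when either *c-Myc* library was left out (adjusted p up to 0.115 and 0.174). *Psmd6* rose by 0.61 ± 0.15, and without *c-Myc* replicate 1 it stood at 0.54 and was not called. The exception to the rise was *Psmd8*. It had 53.5, 49.6, 43.6 and 40.5 CPM in juvenile libraries and 54.3 and 47.8 in *c-Myc* libraries. These overlap and differed by 0.10 ± 0.13 on the log2 scale (adjusted p = 0.551). In *c-Myc* + *R172H* libraries it had 46.8 and 45.8 CPM. *Psmd2*, a large scaffold subunit of the base, had 84.6 to 121 CPM in juvenile and 174 CPM in both *c-Myc* libraries and rose by 0.78 ± 0.12.

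Assembly factors of the 20S core showed larger changes than most subunits. *Psmg1* and *Psmg2* form one chaperone of alpha-ring assembly and *Psmg3* and *Psmg4* another. All 4 rose in *c-Myc* osteoblasts, by 1.51 ± 0.26, 1.15 ± 0.33, 2.07 ± 0.22 and 1.75 ± 0.41. *Psmg3* had the largest increase of all members, with 3.38, 3.82, 3.34 and 3.35 CPM in juvenile, 4.15, 1.02, 1.81 and 2.02 in adult, 16.4 and 13.4 in *c-Myc* and 11.9 and 14.2 in *c-Myc* + *R172H* libraries (adjusted p = 7.21e-06 with *c-Myc*). Of its windows 18.4% occur in *Gm26938*, which overlaps it on the same strand. *Psmg4* was lowest in juvenile replicate 3, at 0.695 CPM, and had 2.19 to 2.98 in the other juvenile libraries against 7.26 CPM in both *c-Myc* libraries. *Psmg1* rose from 5.71 to 14.3 CPM in juvenile libraries to 30.2 and 26.5 CPM. *Psmg2* was not called without *c-Myc* replicate 1 (adjusted p = 0.187) and, with *c-Myc* + *R172H*, not without replicate 2 of that group. *Psmg4* was not called there without replicate 1 (adjusted p = 0.123). The mean level of the 4 was 4.93 ± 0.802 CPM per kb in juvenile and 15.8 ± 1.63 in *c-Myc* libraries. Among the 3 chaperones of 19S assembly, *Psmd5* rose by 0.89 ± 0.21 (adjusted p = 0.0569 without *c-Myc* replicate 1), and *Psmd9* and *Psmd10* were not called, at 0.43 ± 0.27 and 0.81 ± 0.39. With *c-Myc* + *R172H*, *Psmd10* was called as well (1.06 ± 0.39, adjusted p = 0.0337), but not when either of those libraries or juvenile replicate 2 was left out (adjusted p up to 0.173).

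Activators that can replace the 19S cap went in different directions. *Psme3* encodes PA28 gamma, the nuclear activator, and had 45.9, 46.9, 42.1 and 35.4 CPM in juvenile and 48.0, 41.1, 42.0 and 39.4 in adult libraries. It had 128 and 131 CPM with *c-Myc* and 128 and 121 with *c-Myc* + *R172H*, a rise of 1.58 ± 0.11 (adjusted p = 2.73e-07) and 1.55 ± 0.11 (adjusted p = 2.26e-07). *Psme1* and *Psme2*, which encode the interferon-inducible PA28 alpha and beta, were not called, at -0.18 ± 0.27 and -0.15 ± 0.21 with *c-Myc*. *Psme2* had 12.1, 13.8, 11.3 and 17.4 CPM in juvenile and 12.4 and 12.6 in *c-Myc* libraries, and *Psme1* had 10.8 and 10.3 CPM in *c-Myc* libraries. *Psme2* shares 44.0% of its windows with *Psme2b*, which stayed below 1 CPM in every library, so the split of reads between this pair is uncertain. Scaled by library totals, both *Psme1* and *Psme2* reversed, to 0.67 and 0.69, still under the median of all genes.

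*Psme4*, which encodes PA200, was the single member called lower. It had 110, 106, 92.3 and 104 CPM in juvenile libraries, 63.3, 85.2, 83.1 and 63.6 in adult, 86.6 and 78.1 in *c-Myc* and 85.8 and 84.2 in *c-Myc* + *R172H* libraries. Every juvenile library was above every other library. Against juvenile libraries it fell by 0.35 ± 0.10 on the log2 scale with *c-Myc* (adjusted p = 0.013) and by 0.27 ± 0.10 with *c-Myc* + *R172H* (adjusted p = 0.0386). The first call was lost without *c-Myc* replicate 2, in the fit of all 12 libraries and without the filter on low counts, with an adjusted p of up to 0.147. The second was lost in the fit of all 12 libraries, without the filter, without juvenile replicate 1 or 2 and without either *c-Myc* + *R172H* library, with an adjusted p of up to 0.195. With library totals the signs turned to 0.48 and 0.77, again under the median of all genes. *Psmf1*, which encodes the proteasome inhibitor PI31, was not called, at 0.14 ± 0.34 with *c-Myc*. *Psmc3ip* was not called, at 0.66 ± 0.48, and stayed at or below 2.43 CPM in every library.

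**Figure D4:**
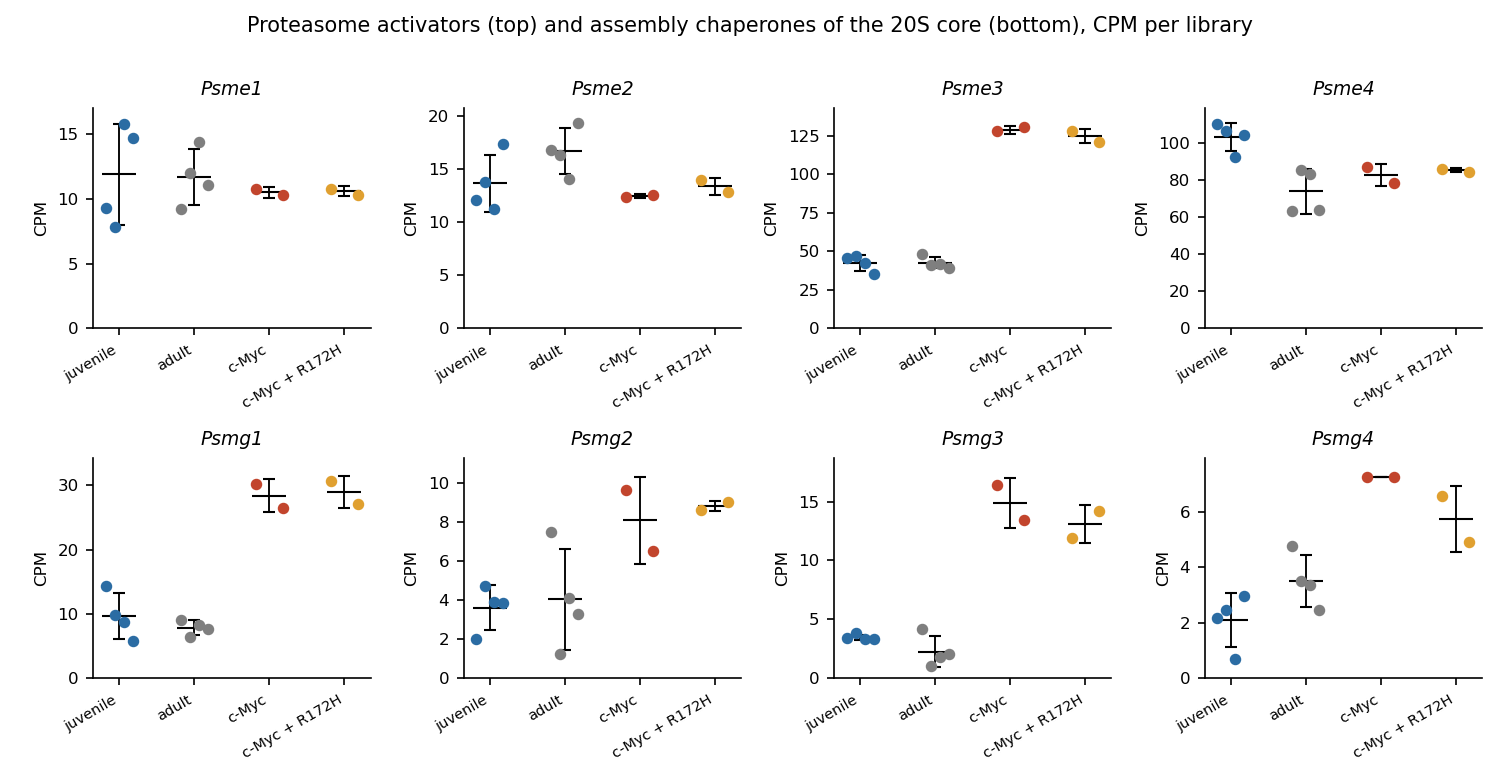
CPM per library of the activators *Psme1* to *Psme4* (top row) and of the 20S assembly chaperones *Psmg1* to *Psmg4* (bottom row) in juvenile (n = 4), adult (n = 4), *c-Myc* (n = 2) and *c-Myc* + *R172H* (n = 2) libraries. Points are libraries, the wide line is the mean and the bars are the SD; *Psme3* and the chaperones are high in both induced groups, *Psme1* and *Psme2* overlap, and *Psme4* is highest in juvenile libraries.

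Promoter sequences from RefSeq (build GRCm38.p6) covered 42 of the 50 genes with 45 windows, each of 250 bases before and 50 after a start site. The bases before the start site are shown for the activator and the chaperone with the largest increase, *Psme3* and *Psmg3*, and for *Psmb5* and *Psmb6*, a pair of catalytic subunits of which one was called and the other was not with *c-Myc*. Capitals mark matches to CACGTG, the E-box known to be bound by MYC with MAX, and to TGACNNNGC, the core of the antioxidant response element known to be bound by NFE2L1 and NFE2L2. Both strands were searched. *Psme3* lies at chr11:101315963-101316212 (plus strand), *Psmg3* at chr5:139826895-139827144 (minus strand), *Psmb5* at chr14:54617996-54618245 (minus strand) and *Psmb6* at chr11:70525107-70525356 (plus strand).
Psme3: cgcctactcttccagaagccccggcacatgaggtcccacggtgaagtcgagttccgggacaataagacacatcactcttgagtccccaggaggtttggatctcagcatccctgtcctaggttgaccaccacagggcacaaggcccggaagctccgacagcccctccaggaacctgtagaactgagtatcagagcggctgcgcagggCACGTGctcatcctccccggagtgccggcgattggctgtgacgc
Psmg3: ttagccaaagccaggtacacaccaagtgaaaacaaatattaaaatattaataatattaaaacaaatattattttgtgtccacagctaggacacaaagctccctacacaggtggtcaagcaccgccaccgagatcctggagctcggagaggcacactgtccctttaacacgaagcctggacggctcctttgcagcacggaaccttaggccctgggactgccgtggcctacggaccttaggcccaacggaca
Psmb5: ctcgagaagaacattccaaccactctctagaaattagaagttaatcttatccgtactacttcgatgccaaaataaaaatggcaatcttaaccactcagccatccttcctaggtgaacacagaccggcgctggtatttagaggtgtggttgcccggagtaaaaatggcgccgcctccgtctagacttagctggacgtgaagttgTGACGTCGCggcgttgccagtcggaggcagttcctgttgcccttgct
Psmb6: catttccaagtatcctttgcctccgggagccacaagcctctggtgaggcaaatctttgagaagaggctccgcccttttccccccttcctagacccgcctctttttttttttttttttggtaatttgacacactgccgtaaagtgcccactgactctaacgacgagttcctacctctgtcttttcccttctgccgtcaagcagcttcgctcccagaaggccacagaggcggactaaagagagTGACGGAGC

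The window of *Psme3* holds CACGTG, *Psmb5* and *Psmb6* each hold TGACNNNGC, and *Psmg3* holds neither. Over the 45 windows, CACGTG was found in 8.89% (*Psma4*, *Psmb10*, *Psmd9* and *Psme3*), against 7.15% of the 32851 mouse promoter windows of the same length. TGACNNNGC was found in 13.3% against 12.4%. Of further motifs searched on both strands, TTCNNNGAA, the interferon gamma activated site, was found in 6.67% against 8.3%, and CCAAT in 33.3% against 37.4%. No match of one motif overlapped a match of another. Each share was close to that of all promoters, and 8 members had no window. Whether any of these sites acts on the members was not tested.

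Genes of the same pathway without a Psm name were read beside the members. Of 9 partners of the proteasome 7 rose with *c-Myc* and none fell. Over all genes 28.4% were higher. Among the 7 were *Usp14* (1.80 ± 0.21) and *Uchl5* (1.58 ± 0.24), deubiquitinases that bind the 19S particle, the ubiquitin receptor *Adrm1* (1.07 ± 0.12) and the core maturation factor *Pomp* (0.77 ± 0.19). *Pomp* was not called without *c-Myc* replicate 1 (adjusted p = 0.0805). Of 5 shuttle factors, which carry ubiquitinated proteins to the proteasome, 4 rose, including *Ubqln4* (1.38 ± 0.14). Of the 3 genes of the p97 segregase, *Vcp* rose by 0.43 ± 0.08 and *Nploc4* by 0.59 ± 0.17, the latter not called without *c-Myc* replicate 1 (adjusted p = 0.0984). With *c-Myc* + *R172H*, 7 of 9, 4 of 5 and 2 of 3 were called higher, against 30.4% of all genes. There *Pomp* was not called without replicate 1 of that group (adjusted p = 0.0851), and *Nploc4* not without either of its libraries or juvenile replicate 2 (adjusted p up to 0.202), nor with upper-quartile scaling or in the fit of 6 libraries. Between the ages none of these genes was called in edgeR.

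Of 4 factors that control proteasome genes, 1 rose and 2 fell with *c-Myc*. *Nfe2l1*, known to drive proteasome genes when proteasome activity is short, fell by 0.34 ± 0.10 on the log2 scale with *c-Myc* (adjusted p = 0.0102). It had 129 to 155 CPM in juvenile, 113 and 116 in *c-Myc* and 97.3 and 94.3 in *c-Myc* + *R172H* libraries. *Ngly1*, the glycanase that activates its product, fell by 1.21 ± 0.22 (adjusted p = 0.000497), from 14.4, 19.5, 16.3 and 15.5 CPM in juvenile libraries to 6.85 and 7.54. *Nfe2l2* rose by 0.56 ± 0.16, and was not called without *c-Myc* replicate 1 (adjusted p = 0.136) or with *c-Myc* + *R172H* (0.33 ± 0.16, adjusted p = 0.103). The calls of *Nfe2l1* and *Ubb* were lost when either *c-Myc* library was left out (adjusted p up to 0.1 and 0.0776). Scaled by library totals *Nfe2l1* turned to 0.51, and *Ngly1* was not called. *Rps27a*, which encodes ubiquitin fused to a ribosomal protein, rose by 0.63 ± 0.12, and *Ubb*, which encodes polyubiquitin, fell by 0.36 ± 0.10. *Ubb* turned to 0.48 with library totals.

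The *c-Myc* + *R172H* osteoblasts were compared with the same 4 juvenile libraries, so their values are not independent of those above. Of 49 members tested, 37 were higher and 1 lower, against 30.4% and 26.3% of all genes, and 18 reached a log2 fold change of at least 1, against 19.6%. In 39 members both libraries lay above all juvenile libraries and in 1, *Psme4*, both lay below, against 36.6% and 30.1% of all genes. The members' median was 0.76, against 0.08 over all genes. The 3 largest increases were those of *Psma5* (1.93 ± 0.18), *Psmg3* (1.92 ± 0.22) and *Psmg1* (1.57 ± 0.26). Between 32 and 38 members were called higher when 1 juvenile library was left out, and 3752 to 3998 of all genes. A fit of these 6 libraries alone called 29, and 3273 of all genes. Without either *c-Myc* + *R172H* library that group held 1 library, and fewer members and fewer of all genes were called. With any 1 library left out, the members' median was 0.716 to 0.805. With library totals 46 were called higher, the members' median was 1.81 and that of all genes 1.12, and all genes split into 7668 higher and 1169 lower in place of 3832 and 3311.

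What the *Trp53* allele added was asked by comparing *c-Myc* + *R172H* with *c-Myc* osteoblasts. None of the 49 members tested was called in edgeR, while over all genes 0.00794% were called higher and 0.461% lower. An unadjusted p below 0.05 was reached by 1 member, and the share over all genes was not computed for this count. The members' median was -0.01 and their range -1.02 to 1.04, the ends of which are *Psmb9* and *Psme2b*, both with few counts. The member with the unadjusted p below 0.05 was *Psmb5*, with 43.5 and 37.2 CPM in *c-Myc* and 27.0 and 28.2 in *c-Myc* + *R172H* libraries. The 2 groups do not overlap and differed by -0.52 ± 0.15 on the log2 scale (adjusted p = 0.26). DESeq2 called it lower (adjusted p = 0.0439), as did edgeR on these 4 libraries alone (adjusted p = 0.000812). Both settings called more of all genes: DESeq2 called 185 lower and 7 higher. The fit of 4 libraries called 440 lower and 189 higher, against 58 and 1 in the main fit. *Psmb6* and *Psmb7* differed by -0.02 ± 0.15 and 0.16 ± 0.17. *Psmd5*, at 20.7 and 18.1 against 15.3 and 16.6 CPM, was not called either, at -0.25 ± 0.25. These intervals are wide for 2 libraries a group, so small effects of the allele on proteasome genes were not detectable.

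Age was examined by comparing juvenile with adult osteoblasts, and few proteasome genes differed. Of 48 members tested, with *Psmb11* and *Psme2b* below the filter, 1 was higher in juvenile osteoblasts and none lower, against 1.89% and 3.23% of 11345 genes. An unadjusted p below 0.05 was reached by 6 members. The share over all genes was not computed for this count, so it cannot be set against a background. DESeq2 called 1 higher and 1 lower, against 372 and 628 of all genes. The median was -0.04, against 0.00 over all genes. In 3 members (*Psmd4*, *Psmd8* and *Psme4*) every juvenile library was above every adult library, and in 4 (*Psma5*, *Psmb5*, *Psmb8* and *Psmd14*) every one was below, against 6.17% and 6.75% of all genes. The edgeR counts at an adjusted p below 0.05 and the counts of libraries lying apart are close to the background.

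*Psme4* was the member called, with the juvenile and adult values given above and was higher in juvenile osteoblasts by 0.48 ± 0.13 on the log2 scale (adjusted p = 0.0397). Its call was lost when any one of juvenile replicates 1, 2 and 4 or adult replicates 1 and 4 was left out, with an adjusted p between 0.094 and 0.118, and with library totals (0.25, adjusted p = 0.339). *Psmd14* had 21.2, 13.7, 19.6 and 16.8 CPM in juvenile and 28.9, 27.2, 23.0 and 22.7 in adult libraries and was not called (-0.52 ± 0.18, adjusted p = 0.108).

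**Figure D5:**
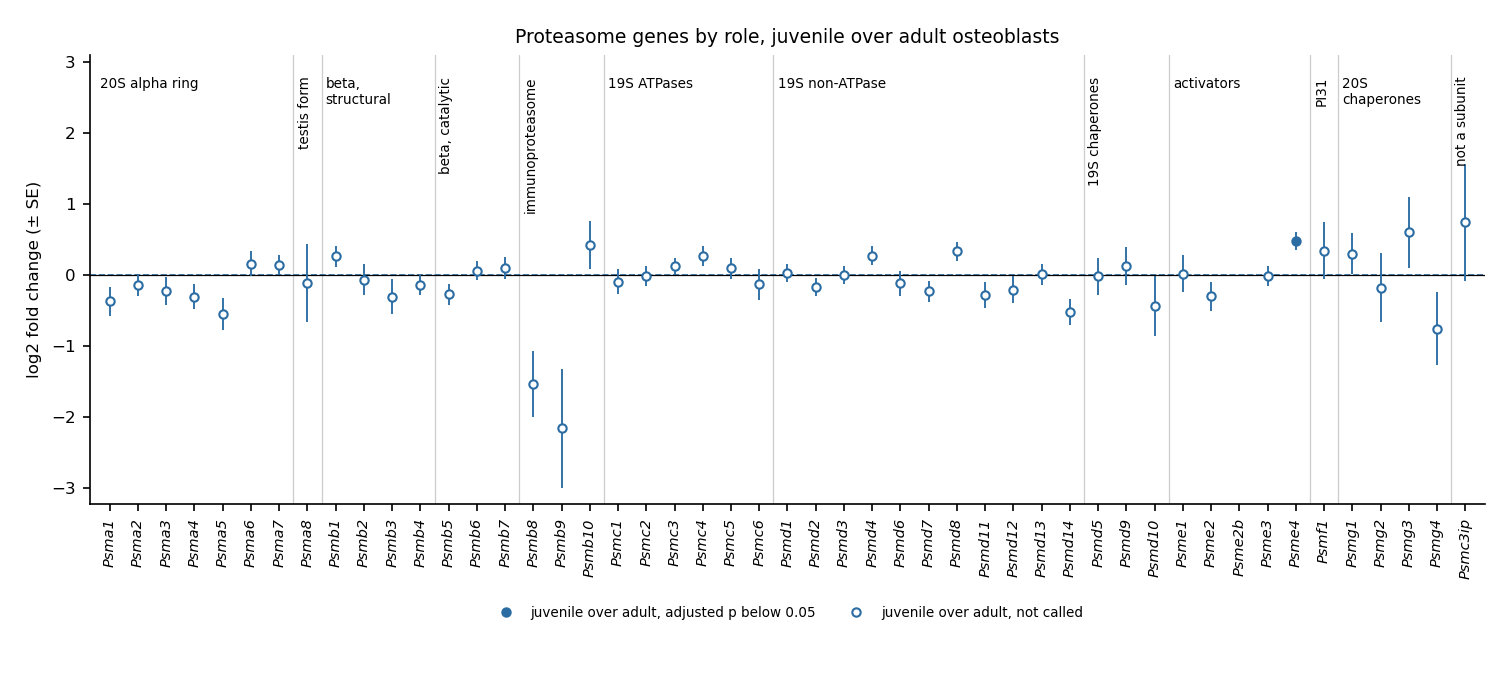
Log2 fold change of juvenile (n = 4) over adult (n = 4) osteoblasts, with SE, for the 48 proteasome genes tested, ordered by role; *Psme2b* was not tested and has no point. The filled point, *Psme4*, passed an adjusted p of 0.05; *Psmb8* and *Psmb9* lie at -1.52 and -2.16 and most others within 0.5 of 0.

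*Psmb8* and *Psmb9* had the largest differences by size between the ages among the members, and neither was called. *Psmb8* had 2.65, 1.65, 2.64 and 0.621 CPM in juvenile and 4.05, 5.42, 5.17 and 7.14 in adult libraries, which do not overlap. Juvenile over adult, *Psmb8* stood at -1.52 ± 0.46 on the log2 scale and did not pass the test (adjusted p = 0.0658). It was called lower by DESeq2 (adjusted p = 0.0147) and without a filter on low counts (adjusted p = 0.0422). *Psmb9* had 1.00, 0, 1.11 and 0.497 CPM in juvenile and 3.04, 5.87, 1.68 and 1.07 in adult libraries, or -2.16 ± 0.83 on the log2 scale (adjusted p = 0.148). *Psmb10* differed in the other direction by sign, at 0.42 ± 0.34, with overlapping groups. *Psme1* and *Psme2* were not called, at 0.02 ± 0.26 and -0.30 ± 0.21.

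Genes that act after the immunoproteasome in MHC class I presentation were lower in juvenile than in adult osteoblasts. Of 12 genes of this list 7 were called lower and none higher. Between the ages, 3.23% of all genes were called lower and 1.89% higher. *B2m*, the light chain, had 140, 139, 159 and 165 CPM in juvenile and 237, 326, 293 and 167 in adult libraries, which do not overlap (-0.77 ± 0.17, adjusted p = 0.0146). The heavy chains *H2-K1* and *H2-D1* fell by 1.16 ± 0.19 and 1.20 ± 0.17, the peptide transporter gene *Tap1* by 1.14 ± 0.25 and *Tapbp* by 0.88 ± 0.15. The calls of *B2m* and *Tap1* were lost without juvenile replicate 1 or 2 (adjusted p up to 0.0594 for each). *Tap2* was not called, at -1.02 ± 0.36 (adjusted p = 0.122). With *c-Myc* 7 of the 12 were lower than in juvenile osteoblasts and with *c-Myc* + *R172H* 8, with *B2m* at 55.0 and 55.3 and at 43.2 and 44.8 CPM. Over all genes 25.0% and 26.3% were called lower. With *c-Myc*, the calls of *Tap1* and *Tap2* were lost when either *c-Myc* library was left out (adjusted p up to 0.291 and 0.163), and that of *Tap1* without juvenile replicate 3. With *c-Myc* + *R172H*, that of *Tap2* was lost without replicate 2 of that group (adjusted p = 0.103). *H2-K1*, *Tap1* and *Tap2* were not called with library totals in either comparison.

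Marker genes of blood cells differed between the same groups. The summed CPM of 15 haematopoietic markers was 3.1 to 7.65 in juvenile, 12.5 to 18.3 in adult, 12.2 to 13.4 in *c-Myc* and 8.48 to 9.47 in *c-Myc* + *R172H* libraries, although the sort left out CD45+ cells. Of the 15, 7 were at 0 in every juvenile library, *Ptprc* among them, against 4 in adult libraries. The summed CPM of the 11 cartilage markers, led by *Col2a1*, also lay apart between the ages. Of the 11, only *Col2a1* was called, lower in juvenile osteoblasts (-1.9 ± 0.43, adjusted p = 0.035), and 10 were not. *Col10a1* alone pointed the other way, at 0.66 ± 0.42. The part of these cells in the levels of *Psmb8*, *Psmb9* and the MHC class I genes was not tested.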

How the data were processed

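Per the labels and the study's methods, the authors used cutadapt 4.6 on single-end reads, STAR 2.7.11a with the mm10 genome and HTSeq 2.0.5, and deposited raw counts per gene for 12 libraries, with no normalization. The strand setting of the counting is not given in the sources used here. Libraries were grouped by their titles.

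The members and all gene lists were chosen with earlier results of these data known. The main test was edgeR 4.0.16 in R 4.3.3, with TMM factors, low counts filtered by its defaults, the quasi-likelihood F test on a robust fit, and Benjamini-Hochberg adjustment over all genes tested, called at 0.05. Age was fitted on juvenile and adult libraries only, and both induced groups were fitted together with the juvenile libraries. The SE was taken from the F statistic and is an approximation. The fits were tested on simulated counts. No pair of replicates was a duplicate: the chi-square per degree of freedom between them was 5.45 to 136. Exon lengths, overlaps and shared 86-base windows came from GENCODE vM21 on GRCm38, the build called mm10. Alternatives were RLE, upper-quartile and library-total scaling, *Col1a1*, *Col1a2* and *Gm26917* left out, no filter, a minimum of 10 counts per library, fits on more or fewer groups, a replicate block, DESeq2 1.42.0 and single libraries left out. By rule, values per library were given for the catalytic subunits, the activators, and up to 3 called members with the largest change in each direction. Other members and list genes given in this way, such as *Psmd8*, *Psmd14*, *Psmc1* and *B2m*, were chosen after their values were seen. Some genes of the pathway lists are not reported here by name. No column of the table was left unused.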

Additional observations from a re-analysis of the deposited data

Results flagged for a closer look

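A library stood apart from the other 3 of its group, by Dixon's criterion at 95%, in 6 of the 138 groups of 4 examined (the members, the list genes with recomputed results, the summed CPM and the immunoproteasome share), about as many as chance gives (1 in 20). *Psmc5* had 42.5 CPM in juvenile replicate 3 against 31.2 to 33.0 in the other juvenile libraries. *Psmc2* had 28.9 CPM in juvenile replicate 2 against 37.9 to 38.6. *Psmg3* had 3.82 CPM in juvenile replicate 2 against 3.34 to 3.38, a gap that is small beside its levels in induced libraries. *Psmb10* had 8.5 CPM in adult replicate 1 against 5.3 to 5.56. *Pomp* had 11.4 CPM in adult replicate 2 against 14.8 to 15.1. *Tap1* had 11.7 CPM in juvenile replicate 3 against 6.91 to 7.49.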

How the results depend on the processing

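Of the values of single genes recomputed under the alternatives, 994 of 1067 kept their direction and side of the threshold for *c-Myc* over juvenile, 976 of 1068 for *c-Myc* + *R172H* over juvenile, 201 of 219 for age and 75 of 80 for *c-Myc* + *R172H* over *c-Myc*. The cause of the changes below was not tested. The depth limits *Psmb8*, *Psmb9*, *Psme2b* and *Psmb11* the most, and with 2 libraries in each induced group single calls often rest on 1 of them.

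Scaling by library totals gave 0 members higher and 2 lower in juvenile than adult osteoblasts (*Psmb8* and *Psmd14*), 0 lower with *c-Myc* and 0 lower with *c-Myc* + *R172H*. Of all genes it called 53 higher and 793 lower by age, 1115 lower with *c-Myc* and 1169 lower with *c-Myc* + *R172H*. The members' medians became -0.275 for age (all genes -0.243), 1.62 for *c-Myc* (all genes 0.872), 1.81 for *c-Myc* + *R172H* (all genes 1.12) and 0.194 between the induced groups (all genes 0.207). The mean summed CPM became 1027 in juvenile, 1214 in adult, 3019 in *c-Myc* and 3484 in *c-Myc* + *R172H* libraries. With *c-Myc* the log2 fold change turned to 0.729 for *Psmb9*, 0.673 for *Psme1*, 0.694 for *Psme2*, 0.483 for *Psme4*, 0.505 for *Nfe2l1* and 0.475 for *Ubb*. With *c-Myc* + *R172H* it turned to 1.02 for *Psmd8*, 0.914 for *Psme1*, 1.04 for *Psme2*, 0.766 for *Psme4*, 1.01 for *Psmf1*, 0.489 for *Nfe2l1* and 0.436 for *Ubb*. Between the induced groups *Psmb8* turned to 0.00181.

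Without a filter on low counts, 1 member was lower in juvenile than adult osteoblasts (*Psmb8*), against 578 of all genes. With *c-Myc* and with *c-Myc* + *R172H*, 0 members were lower, against 2973 and 3178 of all genes. For the last comparison *Psmd8* turned to 0.0433, *Psme2* to 0.0409 and *Psmf1* to 0.029. In a fit of all 12 libraries 1 member was lower by age (*Psmd14*) and 0 were lower in either induced group. Of all genes, this fit called 633 lower by age, 2915 lower with *c-Myc* and 3191 lower with *c-Myc* + *R172H*. DESeq2 called 1 member lower by age (*Psmb8*) and 1 between the induced groups (*Psmb5*), and a fit of the latter groups alone also called 1 (*Psmb5*). Of all genes, DESeq2 called 628 and 185 lower, and the fit of the induced groups alone called 440 lower. Without division by exon length the immunoproteasome share was 7.665% in juvenile, 10.17% in adult, 9.349% in *c-Myc* and 9.134% in *c-Myc* + *R172H* libraries.

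Replicate numbers did not pair the samples: the deviations of libraries with the same number correlated at -0.0785 to 0.0622 between the juvenile and the other groups, and at 0.192 between the induced groups, which have 2 pairs only. These are the numbers of the titles. The names of the adult libraries carry other numbers, by which juvenile replicates 3 and 4 would meet adult replicates 1 and 2, with correlations of 0.0222 and 0.144. With the number as a replicate block, 0 members were higher by age (*Psme4*, adjusted p = 0.0681), against 166 of all genes. With *c-Myc* 39 members were higher and with *c-Myc* + *R172H* 37, against 4044 and 4267 of all genes. Between the induced groups 1 member (*Psmb5*, adjusted p = 0.0343) was lower, against 296 of all genes. *Psmb6* was among the members higher with *c-Myc* (adjusted p = 0.00516) and with *c-Myc* + *R172H* (adjusted p = 0.00687). With the block, *Psmb9* turned to 0.752, *Psmd8* to -0.0458 and *Psme1* to 0.265 with *c-Myc*, and *Psme1* to 0.297 and *Psme2* to 0.052 with *c-Myc* + *R172H*.

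With single libraries left out, 0 to 1 members were higher by age, 0 to 1 were lower with *c-Myc* and 0 to 1 with *c-Myc* + *R172H*. The log2 fold changes that turned, none of them called with all libraries, ranged with *c-Myc* from -0.673 to 0.366 for *Psmb9*, -0.17 to 2.18 for *Psme2b* and -0.0846 to 0.335 for *Psmf1*. With *c-Myc* + *R172H* they ranged from -0.0797 to 0.0628 for *Psmd8*, -0.314 to 0.00495 for *Psme1*, -0.0967 to 0.115 for *Psme2* and -0.246 to 0.153 for *Psmf1*. Between the induced groups *Psmb8* ranged from -0.76 to 0.488.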
